A study of Mus musculus with 6 samples.

Results

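The chemokine, interleukin and epithelial cytokine genes of MLE15 cells were compared between lines with reduced Nkx2-1 and control lines. A gene was a member if 1 transcript cluster of the array, the set of probes that stands for a gene, carried its symbol alone and that symbol was a Cxcl, Ccl or Il gene with a number, or was Cx3cl1, Il1rn, Tslp, Csf1, Csf2, Csf3, Lif or Tnf. This rule, which used names only, gave 72 of the 19938 genes with a symbol of their own. Where several transcript clusters carried 1 symbol, the cluster that was brightest over the 6 arrays stood for the gene.

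MLE15 (MLE-15 in the labels) is a mouse lung epithelial line that was grown from lung tumors driven by the SV40 large T antigen under the human SFTPC promoter, so every array came from transformed cells of a single line. The 3 Nkx2-1-shRNA lines had received a mix of shRNAs against Nkx2-1 in the lentiviral vector pLKO.1. The 3 non-silencing control lines had received that vector empty. All 6 lines were selected in puromycin, and the labels give 48 h for each of them, while the study describes stable lines. Each line was hybridized to 1 Affymetrix Mouse Gene 1.0 ST array, and the values are log2 levels after Robust Multi-Array Analysis (RMA), the authors' summary over probes. A control that carries a shRNA against an unrelated target was not analysed here, so the expression of a shRNA cannot be told apart from the loss of Nkx2-1.

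Chemokines are small secreted proteins that guide migrating leukocytes through G protein-coupled receptors. Many interleukins and some colony stimulating factors instruct leukocytes, stroma and epithelium through receptor chains that signal by JAK and STAT proteins. Other families, such as IL-1 and TNF, signal by NF-kB. In the lung, alveolar and airway epithelial cells are themselves a source of several of them. Epithelial alarmins such as IL-33, IL-25 and TSLP are released on injury, CCL20 attracts dendritic cells and lymphocytes, and CSF2 maintains alveolar macrophages.

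Nkx2-1, the homeobox factor that the shRNAs target, measured 7.91, 7.98 and 7.83 on the log2 scale with Nkx2-1-shRNA, against 8.61, 8.61 and 8.59 with the empty vector. The knock-down thus left 61.8% of the mRNA (log2 fold change −0.69, SE 0.076, limma adjusted p = 0.00155). The groups did not overlap, and an exact two-sided permutation test of 3 lines against 3 gave p = 0.1, the smallest it allows. Correlations of array levels were 0.991 to 0.994 inside a group and 0.979 to 0.983 across the groups. The SD within a group had a median of 0.122, and the number of arrays limits the precision. A limit for background of 4.35 was set at the 95th percentile of 1245 transcript clusters of olfactory, taste and vomeronasal receptors. The 5 epithelial marker genes lay above it in both groups, with summed log2 levels of 52.13 to 53.3 in Nkx2-1-shRNA lines and 49.83 to 50.39 in control lines. Cldn4 (log2 fold change 1.74, adjusted p = 6.1e-04) and Krt18 (0.44, adjusted p = 0.00825) were called higher. Epcam, Krt8 and Cdh1 were not called (log2 fold changes of 0.34, 0.12 and −0.03). No leukocyte marker was called (0 of 8, summed log2 levels 35.09 to 35.5 in Nkx2-1-shRNA lines and 35.13 to 36.34 in control lines), and Ptprc, Itgam, Adgre1 and Laptm5 were under the limit in both groups. The other 4, above it in both groups, were Cd68 (log2 means of 6.67 in Nkx2-1-shRNA lines and 6.81 in control lines), Cd14 (5.52 in Nkx2-1-shRNA lines and 5.38 in control lines), Coro1a (4.62 in Nkx2-1-shRNA lines and 4.53 in control lines) and Cd3e (4.74 in Nkx2-1-shRNA lines and 4.87 in control lines). The fibroblast markers gave 0 calls of 6 as well (28.33 to 28.89 in Nkx2-1-shRNA lines and 28.19 to 28.68 in control lines). Of 5 alveolar type II genes 4 were lower, Nkx2-1 itself among them, and their summed log2 levels were 36.76 to 37.2 in Nkx2-1-shRNA lines and 41.55 to 42.29 in control lines. Sftpc, with log2 means of 4.08 in Nkx2-1-shRNA lines and 7.73 in control lines, made up most of that difference, and Sftpb was not called (log2 fold change 0.14, adjusted p = 0.249). Endothelial markers summed to 14.59 to 15.34 in Nkx2-1-shRNA lines and 16.69 to 17.18 in control lines, with Tek alone called lower. The part of these marker shifts in the cytokine levels was not tested.

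A member was called higher or lower at a limma adjusted p under 0.05, with the Benjamini-Hochberg adjustment taken over all 35557 transcript clusters. Of the 72 members, 12 were higher in Nkx2-1-shRNA cells (16.7%; 10.7% of all 19938 genes), 4 were lower (5.56%; 9.88% of all genes) and 56 were not called. The median log2 fold change of the members was 0.03, beside −0.01 for all genes, and single members ran from −1.32 to 2.57. All 3 Nkx2-1-shRNA arrays lay above all 3 control arrays for 17 members (19.8% of all genes) and below them for 11 (20.4% of all genes). At the study's own threshold, where the adjusted p must be under 0.0005 and the log2 fold change beyond 0.6, 6 members were higher (1.25% of all genes) and 1 was lower (0.622% of all genes). The mean of at least 1 group exceeded the background limit for 37 members. The other 35 members, Il7 among them, lay below it in both groups. The 33 chemokines held 3 higher (9.09%) and 2 lower members (6.06%), and the 39 interleukins and other cytokines held 9 higher (23.1%) and 2 lower (5.13%).

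**Figure D1:**
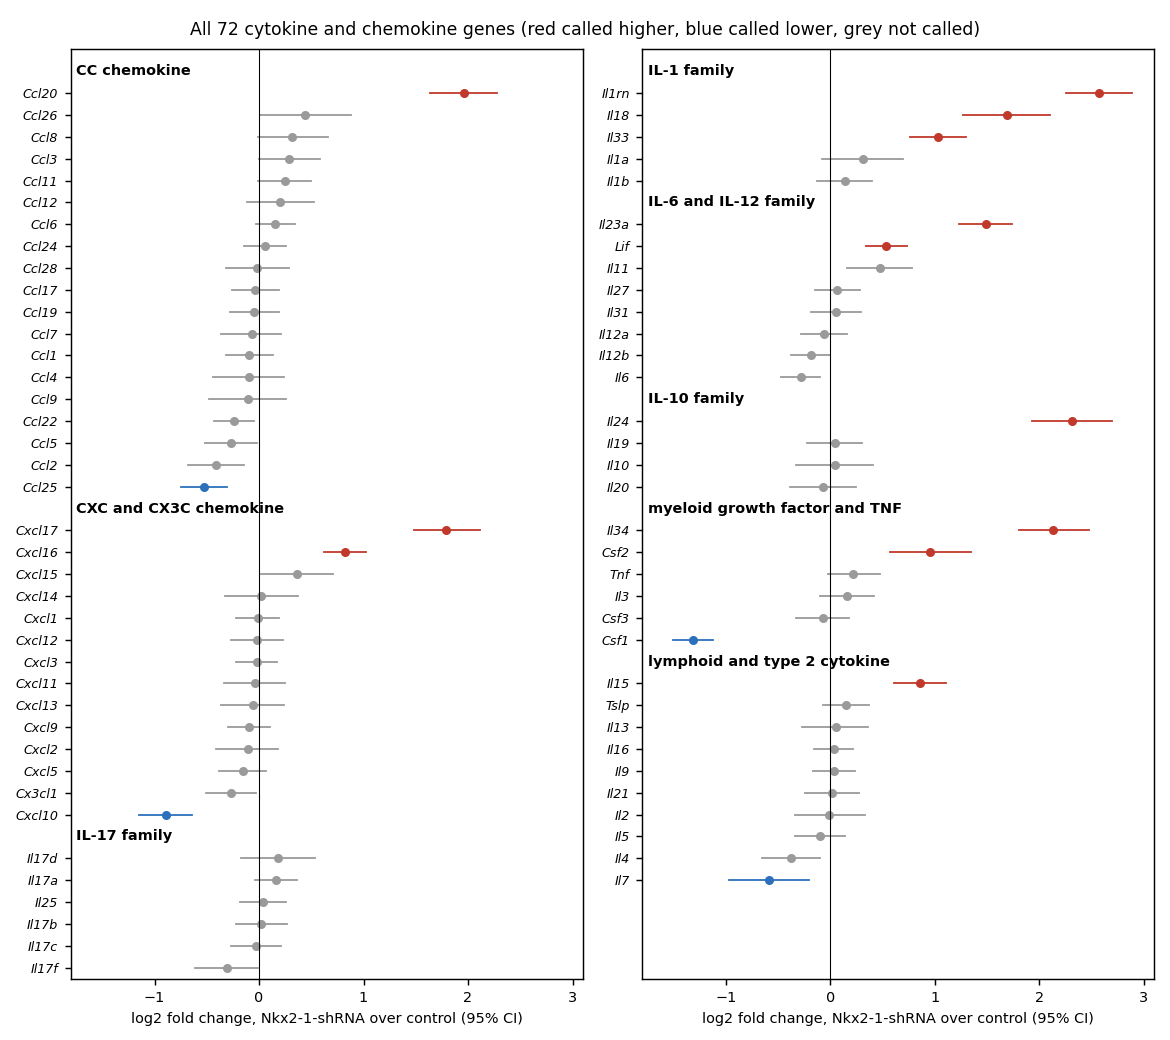
Log2 fold change of Nkx2-1-shRNA over control with its 95% confidence interval for each of the 72 members, grouped by family; red marks members called higher, blue members called lower and grey members not called. The 12 higher members reach from Lif at 0.53 to Il1rn at 2.57, and Csf1 at −1.32 is the lowest.

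**Figure D2:**
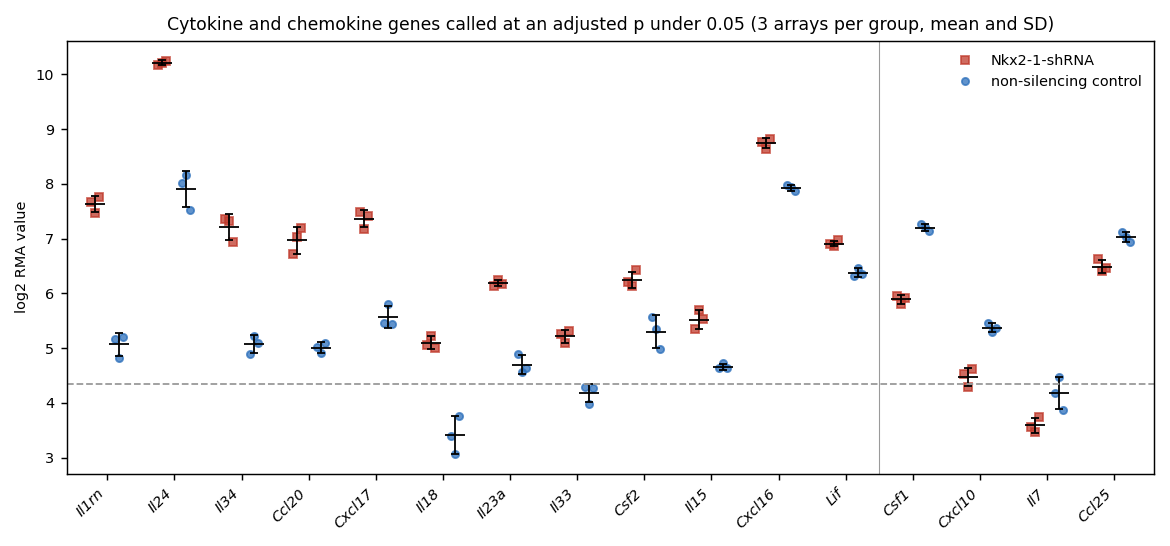
Log2 RMA levels of the 16 called members in each array, 3 Nkx2-1-shRNA lines (red squares) left of 3 control lines (blue circles), with the mean and SD in black; a dashed line marks 4.35, the limit for background, and the vertical line parts higher from lower members. The groups do not overlap for any of the 16, the control arrays of Il18 and Il33 lie below the limit, and so do the Nkx2-1-shRNA arrays of Il7.

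Among the 19 CC chemokines, which carry their first cysteines side by side, 1 was higher and 1 was lower (median log2 fold change −0.04). Each is 5.26%, beside 10.7% higher and 9.88% lower of all genes. Ccl20, the ligand of CCR6, had log2 levels of 6.71, 7.02 and 7.19 in Nkx2-1-shRNA lines and 5.02, 4.91 and 5.1 in control lines. Every knock-down array was more than a log2 unit above every control array. Ccl20 was 3.89-fold higher (log2 fold change 1.96, SE 0.134, adjusted p = 2.7e-04). Ccl25, a chemokine of thymus and small intestine that acts on CCR9, had log2 levels of 6.62, 6.41 and 6.46 in Nkx2-1-shRNA lines and 7.12, 7.02 and 6.93 in control lines. The groups lay apart by a narrower gap, and Ccl25 fell by 0.53 on the log2 scale (SE 0.0936, adjusted p = 0.0103). Its second transcript cluster gave a log2 fold change of −0.69 that was not called (adjusted p = 0.0628). Ccl2, the main attractant of monocytes, had log2 levels of 4.18, 4.31 and 4.34 in Nkx2-1-shRNA lines and 4.83, 4.47 and 4.75 in control lines. All Nkx2-1-shRNA arrays of Ccl2 lay below all control arrays and below the background limit, with a log2 fold change of −0.41 that was not called (adjusted p = 0.052), but passed without control replicate 2 (−0.514, adjusted p = 0.0239). For Ccl5, an attractant of T cells, the log2 fold change was −0.27 (SE 0.105, adjusted p = 0.139).

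Of the 14 CXC and CX3C chemokines 2 were higher (14.3%, beside 10.7% of all genes) and 1 was lower (7.14%, beside 9.88% of all genes). Their median log2 fold change was −0.03. Cxcl17, a chemokine of mucosal epithelium, had log2 levels of 7.48, 7.18 and 7.41 in Nkx2-1-shRNA lines and 5.46, 5.8 and 5.44 in control lines. The lowest knock-down array was above the highest control array by more than a log2 unit, and Cxcl17 was 3.47-fold higher (log2 fold change 1.79, SE 0.131, adjusted p = 3.5e-04). Cxcl16, which is made as a membrane protein and shed, had log2 levels of 8.77, 8.64 and 8.82 in Nkx2-1-shRNA lines and 7.97, 7.94 and 7.87 in control lines. The arrays of each group lay close together and Cxcl16 was 1.77-fold higher (log2 fold change 0.82, SE 0.0835, adjusted p = 0.00118). Adam10, the protease that sheds CXCL16 and CX3CL1, was also higher (log2 fold change 0.72, SE 0.0821, adjusted p = 0.00186). Cxcl10, an interferon-induced ligand of CXCR3, had log2 levels of 4.52, 4.3 and 4.62 in Nkx2-1-shRNA lines and 5.46, 5.29 and 5.37 in control lines. It fell to 53.8% of control (log2 fold change −0.89, SE 0.106, adjusted p = 0.00212), and 1 Nkx2-1-shRNA array was below the background limit. Its genomic neighbors Cxcl9 and Cxcl11, which bind the same receptor, had log2 fold changes of −0.10 and −0.04 and were not called. Cxcl9 was near the limit, and Cxcl11 was under it in both groups.

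No neutrophil attractant among the members was called. Cxcl1 had log2 means of 5.69 ± 0.0613 in Nkx2-1-shRNA lines and 5.7 ± 0.099 in control lines (SD, n = 3 each), and Cxcl2 and Cxcl5 were under the limit in both groups. Cxcl15, or lungkine, a chemokine of mouse lung epithelium, had log2 levels of 6.9, 6.82 and 6.76 in Nkx2-1-shRNA lines and 6.44, 6.75 and 6.19 in control lines. The groups did not overlap, but the control arrays spread widely and the log2 fold change of 0.36 was not called (SE 0.145, adjusted p = 0.149). Without control replicate 2 it passed (0.51, adjusted p = 0.0389). Cxcl12, the ligand of CXCR4, was below the limit in both groups (3.88 ± 0.114 in Nkx2-1-shRNA lines and 3.9 ± 0.137 in control lines). For Cx3cl1, or fractalkine, the log2 fold change was −0.27 (SE 0.101, adjusted p = 0.125).

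The regions just upstream of these genes were searched for 4 motifs, because members of this family are known targets of NF-kB, AP-1 and interferon factors and Nkx2-1 is the factor reduced here. RefSeq windows of 300 bases (GRCm38.p6, 250 before and 50 after the start site) were at hand for 50 of the 72 members, 6 of the 12 higher, 3 of the 4 lower and 41 of the 56 not called. Both strands were read, and matches of different motifs were counted separately where they overlapped. A member was counted once if any of its windows matched, and some members had several windows. The shares given beside them are per window, so the units differ. The NF-kB consensus was present in 1 higher member (Ccl20), 2 lower members (Cxcl10 and Csf1) and 7 members not called, and in 4.51% of all 32851 windows. The AP-1 motif TGANTCA was present in 2 higher, 1 lower and 9 uncalled members (7.81% of windows), and the ISRE core GAAANNGAA in 1 higher, 1 lower and 7 uncalled members (8.56% of windows). The motif CAAGTG for Nkx2-1 was present in 0 of the 9 called members with a window. Among the 41 members not called it was present in 11 (13.6% of all windows). This motif is longer than the core CAAG/CTTG that the study gives, and the shorter core was not counted. The windows of Ccl20, Cxcl10 and Csf1 each hold that shorter core, so called members do not all lack it. A match is a description of letters and not a binding site, and distal elements were not searched. The 3 windows of called members with an NF-kB match are shown 5′ to 3′ along the gene's strand with the match in capitals, since 1 of these genes was higher and 2 were lower. The Ccl20 window is chr1:83116516-83116815 (plus strand), with its match starting at −80 from the start site. The Cxcl10 window is chr5:92348840-92349139 (minus strand), with matches at −159 and −103. The Csf1 window is chr3:107760420-107760719 (minus strand), with its match at −154.
Ccl20: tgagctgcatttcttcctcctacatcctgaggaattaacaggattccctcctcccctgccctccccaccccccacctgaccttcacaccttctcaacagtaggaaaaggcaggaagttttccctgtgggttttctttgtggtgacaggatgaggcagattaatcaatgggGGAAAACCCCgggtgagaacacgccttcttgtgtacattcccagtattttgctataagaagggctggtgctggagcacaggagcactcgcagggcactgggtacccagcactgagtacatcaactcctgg
Cxcl10: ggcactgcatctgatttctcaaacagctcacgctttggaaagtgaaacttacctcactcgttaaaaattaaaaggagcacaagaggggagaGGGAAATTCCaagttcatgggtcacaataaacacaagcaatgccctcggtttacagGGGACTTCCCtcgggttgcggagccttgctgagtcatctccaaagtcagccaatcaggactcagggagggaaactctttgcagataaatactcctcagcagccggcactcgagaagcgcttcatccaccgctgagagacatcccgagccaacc
Csf1: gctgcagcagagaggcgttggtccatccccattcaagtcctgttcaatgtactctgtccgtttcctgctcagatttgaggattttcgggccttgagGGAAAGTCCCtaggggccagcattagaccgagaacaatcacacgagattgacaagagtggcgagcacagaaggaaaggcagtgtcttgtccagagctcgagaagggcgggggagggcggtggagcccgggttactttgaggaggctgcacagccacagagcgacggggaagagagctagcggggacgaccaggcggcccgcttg

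Of the 5 IL-1 family genes that fit the name rule, 3 were higher (60%; 10.7% of all genes) and none was lower (9.88% of all genes). Family members with symbols of another form are not in this count. Il1rn, which encodes the secreted antagonist of the IL-1 receptor, had log2 levels of 7.67, 7.47 and 7.76 in Nkx2-1-shRNA lines and 5.17, 4.82 and 5.21 in control lines. This gap was the widest among the 72 members, a 5.93-fold higher level (log2 fold change 2.57, SE 0.134, adjusted p = 1.0e-04). The agonists that it blocks were near background. Il1a had log2 means of 2.45 ± 0.221 in Nkx2-1-shRNA lines and 2.14 ± 0.246 in control lines, and Il1b had 4.02 ± 0.193 in Nkx2-1-shRNA lines and 3.88 ± 0.0425 in control lines (SD, n = 3 each; adjusted p = 0.267 for Il1a and 0.489 for Il1b). Il18, an inducer of interferon gamma that is stored as a precursor, had log2 levels of 5.05, 5.23 and 5.01 in Nkx2-1-shRNA lines and 3.4, 3.07 and 3.76 in control lines. Since all control arrays were below the background limit, only a bound can be given, at least 1.68-fold higher (adjusted p = 0.00126). Il33, a nuclear alarmin of epithelium, had log2 levels of 5.25, 5.09 and 5.31 in Nkx2-1-shRNA lines and 4.29, 3.99 and 4.27 in control lines, at least 1.83-fold higher (adjusted p = 0.00155). Such bounds set the mean of the brighter group against 4.35 or, where it is higher, the dimmer group's own level. The median log2 fold change of these 5 genes was 1.03 as fitted and 0.75 with Il18 and Il33 at their bounds.

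Genes that process or answer IL-18 were on the maturation and receptor lists. Casp1, the protease that cleaves the precursors of IL-1 beta and IL-18, had log2 levels of 5.78, 5.72 and 5.8 in Nkx2-1-shRNA lines and 3.46, 3.43 and 3.45 in control lines. The control arrays were below the limit and the arrays of each group lay close together, so Casp1 was at least 2.67-fold higher (adjusted p = 2.8e-05). Casp4, the inflammatory caspase that senses lipopolysaccharide in the cytosol, was at least 1.62-fold higher (adjusted p = 0.00788), a call that the methods' t-test lost (0.0564). Aim2, a sensor of cytosolic DNA that recruits caspase-1 through the adaptor ASC, was 3.04-fold higher (adjusted p = 5.1e-04). It had log2 levels of 8.7, 8.86 and 8.78 in Nkx2-1-shRNA lines and 7.28, 7.35 and 6.9 in control lines. Pycard, which encodes ASC, was under the limit in both groups (log2 means of 3.74 in Nkx2-1-shRNA lines and 4.07 in control lines). The sensor genes Nlrp3, Nlrc4, Nlrp1a and Nlrp1b were also under it in both groups, while Nlrp6 was above it and not called. Gsdmd, whose cleaved product forms the pore through which IL-1 beta and IL-18 leave the cell, had log2 levels of 7.61, 7.64 and 7.49 in Nkx2-1-shRNA lines and 6.29, 6.08 and 6.03 in control lines (2.73-fold, adjusted p = 2.5e-04). Il18bp, the secreted protein that neutralizes IL-18 and a gene named after its values were seen, had log2 levels of 6.14, 6.11 and 6.26 in Nkx2-1-shRNA lines and 7.07, 6.73 and 6.73 in control lines, and it fell to 62.8% of control (log2 fold change −0.67, adjusted p = 0.0096). Dpp4, a membrane peptidase that trims several chemokines, had log2 levels of 3.89, 4.53 and 4.46 in Nkx2-1-shRNA lines and 6.15, 5.86 and 5.71 in control lines. It was called lower (adjusted p = 0.00246), and no fold is given because the Nkx2-1-shRNA mean of 4.3 was below the limit. In all, 5 of the 19 maturation and binding genes were higher (26.3%), 2 were lower (10.5%) and 12 were not called (10.7% and 9.88% of all genes were higher and lower; median log2 fold change −0.04).

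**Figure D3:**
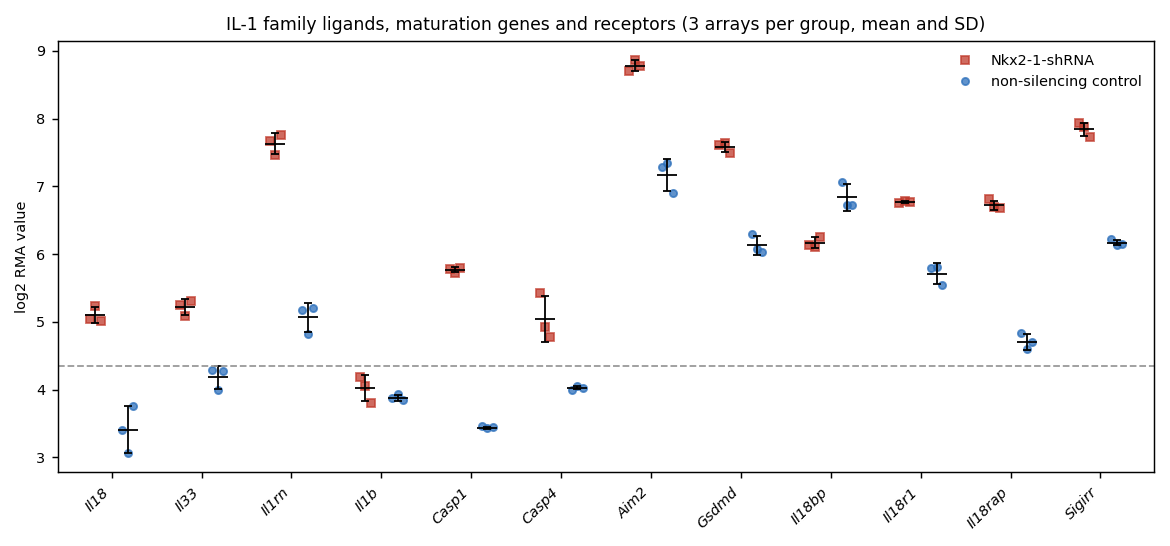
Log2 RMA levels of IL-1 family ligands, maturation genes and receptors in each array, 3 Nkx2-1-shRNA lines (red squares) left of 3 control lines (blue circles), with the mean and SD in black and the background limit of 4.35 dashed. Il1b stays near the limit in both groups, Il18bp alone is lower in Nkx2-1-shRNA lines, and the control arrays of Il18, Il33, Casp1 and Casp4 lie below the limit. Pycard, under the limit in both groups, is not shown.

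In the IL-10 family 1 of 4 members was higher (25%, beside 10.7% of all genes) and none was lower (9.88% of all genes). Il24, a cytokine that acts on epithelial cells and keratinocytes, had log2 levels of 10.17, 10.2 and 10.25 in Nkx2-1-shRNA lines and 8.01, 8.16 and 7.53 in control lines. It was 4.95-fold higher (log2 fold change 2.31, SE 0.16, adjusted p = 2.8e-04), and the control arrays spread more than the knock-down arrays. Il10, the anti-inflammatory member of the family, was under the limit in both groups (2.42 ± 0.137 in Nkx2-1-shRNA lines and 2.38 ± 0.289 in control lines).

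Of the 8 members of the IL-6 and IL-12 families 2 were higher (25%, beside 10.7% of all genes) and none was lower (9.88% of all genes). Their median log2 fold change was 0.06. Il23a, which encodes the p19 subunit of IL-23, had log2 levels of 6.13, 6.25 and 6.18 in Nkx2-1-shRNA lines and 4.9, 4.57 and 4.63 in control lines. It was 2.8-fold higher (log2 fold change 1.49, SE 0.106, adjusted p = 3.1e-04). The p40 subunit, with which p19 must pair, is encoded by Il12b, and Il12b was under the limit in both groups (3.7 ± 0.0604 in Nkx2-1-shRNA lines and 3.89 ± 0.0644 in control lines, adjusted p = 0.16). Lif, a cytokine that signals through gp130, had log2 levels of 6.9, 6.87 and 6.97 in Nkx2-1-shRNA lines and 6.31, 6.47 and 6.36 in control lines. The groups did not overlap, and Lif was 1.45-fold higher (log2 fold change 0.53, SE 0.0814, adjusted p = 0.00599). Il6, the best known gp130 cytokine, was far below the background limit in both groups (1.63 ± 0.0806 in Nkx2-1-shRNA lines and 1.91 ± 0.0416 in control lines, adjusted p = 0.0533). Il11, named here after its values were seen, had log2 levels of 5.51, 5.81 and 5.52 in Nkx2-1-shRNA lines and 5.16, 4.95 and 5.32 in control lines. All its knock-down arrays were above all control arrays, but the log2 fold change of 0.47 was not called (SE 0.131, adjusted p = 0.0527). It passed without control replicate 3 (0.559, adjusted p = 0.0476).

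The myeloid growth factors with TNF held 2 higher (33.3%, beside 10.7% of all genes) and 1 lower of 6 members (16.7%, beside 9.88% of all genes). Their median log2 fold change was 0.19. Il34 and Csf1 encode the ligands of the CSF1 receptor, on which macrophages depend. Il34 had log2 levels of 7.36, 7.32 and 6.94 in Nkx2-1-shRNA lines and 4.9, 5.23 and 5.09 in control lines, 4.39-fold higher (log2 fold change 2.13, SE 0.143, adjusted p = 2.4e-04). Csf1 had log2 levels of 5.95, 5.8 and 5.91 in Nkx2-1-shRNA lines and 7.27, 7.21 and 7.13 in control lines. It fell to 40.2% of control (log2 fold change −1.32, SE 0.0828, adjusted p = 1.9e-04), so these ligands of a shared receptor moved in opposite directions. Csf2, which encodes GM-CSF, had log2 levels of 6.2, 6.14 and 6.42 in Nkx2-1-shRNA lines and 5.56, 5.35 and 4.98 in control lines. It was 1.94-fold higher (log2 fold change 0.95, SE 0.161, adjusted p = 0.00888). For Csf3, the granulocyte factor, the log2 fold change was −0.07 (adjusted p = 0.721), and for Tnf it was 0.22 (adjusted p = 0.207).

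Among the 10 lymphoid and type 2 cytokines 1 was higher and 1 was lower (median log2 fold change 0.02). Each is 10%, near the 10.7% higher and 9.88% lower of all genes. Il15, a growth factor of natural killer and memory T cells, had log2 levels of 5.35, 5.69 and 5.53 in Nkx2-1-shRNA lines and 4.63, 4.73 and 4.63 in control lines, 1.81-fold higher (log2 fold change 0.86, SE 0.106, adjusted p = 0.00251). Il7, the lymphocyte growth factor, was called lower at an adjusted p of 0.0483, but both group means were below the background limit and no fold is given. The call of Il7 was kept without control replicate 3 (adjusted p = 0.0215) and lost on leaving out any other line (adjusted p = 0.0711 to 0.141). Tslp, an alarmin of barrier epithelium, was below the limit in both groups (2.35 ± 0.129 in Nkx2-1-shRNA lines and 2.2 ± 0.0595 in control lines). None of the 6 IL-17 family members was called (median log2 fold change 0.03), although 5 of them exceeded the limit. Il25, the third classical alarmin, had log2 means of 4.57 ± 0.112 in Nkx2-1-shRNA lines and 4.53 ± 0.0908 in control lines.

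The 67 receptor genes of chemokines and cytokines held 10 higher (14.9%) and 7 lower members (10.4%), near the 10.7% and 9.88% of all genes, with a median log2 fold change of 0.02, and 35 were under the limit in both groups. Both chains of the IL-18 receptor were higher. Il18rap, the signalling chain, had log2 levels of 6.81, 6.69 and 6.68 in Nkx2-1-shRNA lines and 4.83, 4.6 and 4.7 in control lines (4.04-fold, adjusted p = 7.7e-05). Il18r1, the binding chain, had log2 levels of 6.76, 6.79 and 6.77 in Nkx2-1-shRNA lines and 5.79, 5.81 and 5.54 in control lines (2.09-fold, adjusted p = 7.6e-04). In the opposite direction, Il13ra1, a chain of the IL-4 and IL-13 receptor, had log2 levels of 4.9, 4.76 and 5.09 in Nkx2-1-shRNA lines and 6.51, 6.68 and 6.53 in control lines. It fell to 31.6% of control (log2 fold change −1.66, adjusted p = 2.2e-04). Il4ra, another chain of that receptor, named with its values known, was 1.63-fold higher (log2 fold change 0.70, adjusted p = 0.00229). Cxcr4, the receptor of CXCL12, had log2 levels of 6.26, 6.04 and 6.03 in Nkx2-1-shRNA lines and 7.81, 7.66 and 7.62 in control lines, 33.2% of control (log2 fold change −1.59, adjusted p = 2.0e-04). Lifr fell to 54.4% of control (log2 fold change −0.88, adjusted p = 0.00251). Il13ra2, the decoy receptor of IL-13, was called lower below the background limit (adjusted p = 0.0332) and kept that call only without control replicate 3 when lines were left out singly (adjusted p = 0.00108, otherwise 0.0862 to 0.0979).

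The ligands were set beside receptor chains, pairs that were drawn up with the values known. Il18 was higher together with both of its receptor chains, and Il15 together with Il15ra, the chain that presents it (log2 fold change 0.57, adjusted p = 0.0198). Lif was higher while Lifr was lower, and their common partner Il6st, which encodes gp130, was higher by 0.36 on the log2 scale (adjusted p = 0.0401). The call of Il15ra was lost without Nkx2-1-shRNA replicate 1 or 3 or control replicate 1 or 2 (adjusted p = 0.0548 to 0.0595), and that of Il6st was lost on leaving out any line but control replicate 1 (0.0616 to 0.126). The receptor of Il34 and Csf1, Csf1r, was called higher (adjusted p = 0.00905) but were under the limit in both groups. Of the chains that bind IL-24, Il20rb and Il22ra1 had log2 fold changes of 0.03 (95% confidence interval −0.15 to 0.21) and −0.04, and Il20ra was below the limit in both groups. The receptors of most chemokines called here were near background. Ccr6, the receptor of CCL20, had log2 means of 3.85 in Nkx2-1-shRNA lines and 4.01 in control lines, and Cxcr6, the receptor of CXCL16, had 2.65 in Nkx2-1-shRNA lines and 2.8 in control lines. Ccr9, the receptor of CCL25, was below the limit in both groups as well, while Cxcr3, the receptor of CXCL10, was above it and not called (log2 fold change −0.08, adjusted p = 0.746).

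**Figure D4:**
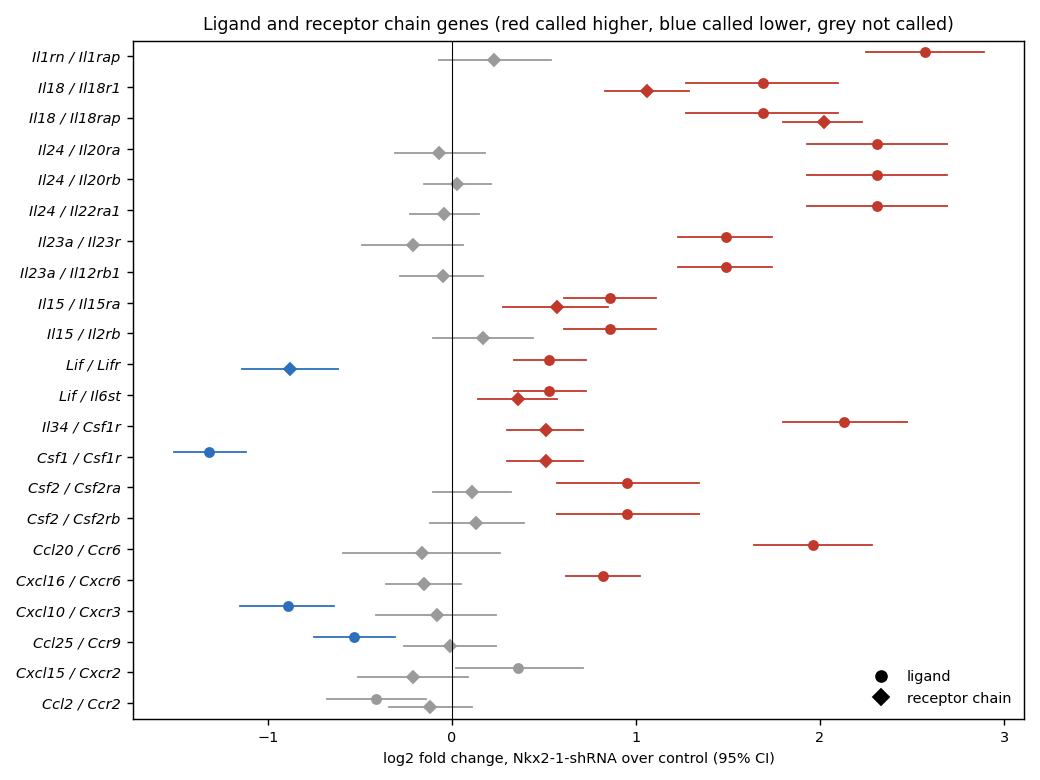
Log2 fold change of Nkx2-1-shRNA over control with its 95% confidence interval for ligands (circles) and receptor chains (diamonds), 1 pair a line. Red marks genes called higher, blue genes called lower and grey genes not called. Il1rn is set beside Il1rap, a chain of the receptor that it blocks and not its own binding chain. Both Il18 chains and Il15ra lie to the right with their ligands, Lifr lies at −0.88 opposite Lif, and Il34 and Csf1 lie on opposite sides of 0.

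Of 13 NF-kB factors and inhibitors 5 were higher (38.5%; 10.7% of all genes) and 1 was lower (7.69%; 9.88% of all genes), with a median log2 fold change of 0.27. Inhibitors of NF-kB were among both the higher and the lower genes. Nfkbia, which encodes I kappa B alpha, had log2 levels of 8.19, 8.1 and 8.33 in Nkx2-1-shRNA lines and 7.29, 7.04 and 6.98 in control lines (2.15-fold, adjusted p = 0.0012). Tnip1, a partner of the deubiquitinase A20, was 1.61-fold higher (adjusted p = 0.00512). Tnfaip3, which encodes A20, was 1.56-fold higher (adjusted p = 0.0309), Relb 1.39-fold (adjusted p = 0.0237) and Nfkbiz 1.37-fold (adjusted p = 0.028). Nfkbib was lower (70.4% of control, adjusted p = 0.0114). The 7 genes not called ran from −0.38 for Nfkbie (adjusted p = 0.0533) to 0.37 for Cyld (adjusted p = 0.123) in log2 fold change. The calls of Nfkbia and Tnip1 were kept on leaving out any single line. Without Nkx2-1-shRNA replicate 1 the other 4 calls were lost, at an adjusted p of 0.0928 for Tnfaip3, 0.0882 for Relb, 0.0908 for Nfkbiz and 0.0503 for Nfkbib. Leaving out Nkx2-1-shRNA replicate 3 also lost Tnfaip3 (0.0872), Relb (0.0796) and Nfkbiz (0.0902). Without control replicate 1 the calls of Relb (0.0582) and Nfkbiz (0.0614) were lost, without control replicate 2 those of Tnfaip3 (0.0765) and Nfkbiz (0.0588), without control replicate 3 those of Tnfaip3 (0.079) and Relb (0.0526), and without Nkx2-1-shRNA replicate 2 that of Nfkbiz (0.0634).

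The 29 adaptors and kinases of these pathways held 3 higher (10.3%; 10.7% of all genes) and 4 lower genes (13.8%; 9.88% of all genes), with a median log2 fold change of −0.14. Sigirr, an orphan receptor that dampens IL-1 and IL-18 signalling in mice, had log2 levels of 7.93, 7.87 and 7.73 in Nkx2-1-shRNA lines and 6.22, 6.14 and 6.15 in control lines (3.19-fold, adjusted p = 9.5e-05). Irak2, a kinase-like adaptor downstream of IL-1 receptors, was 1.46-fold higher (adjusted p = 0.00728). Irak3, an inhibitory member of the same family, fell to 62.8% of control (adjusted p = 0.00523), and Stat2, a factor of the type I interferon response, to 64.8% (adjusted p = 0.0101). Ikbkg and Tab1 were called at small changes (log2 fold change −0.40, adjusted p = 0.0186, and 0.36, adjusted p = 0.0305). Without Nkx2-1-shRNA replicate 1, or without control replicate 1 or 2, both of these calls were lost (adjusted p = 0.0696, 0.0589 and 0.0607 for Ikbkg and 0.107, 0.0654 and 0.0684 for Tab1). Leaving out Nkx2-1-shRNA replicate 3 lost Ikbkg (0.0681), and leaving out Nkx2-1-shRNA replicate 2 or control replicate 3 lost Tab1 (0.0987 and 0.0741). Over the receptors, the maturation, adaptor and NF-kB genes and a list of other secreted cytokines together, 29 of 155 genes were higher (18.7%; 10.7% of all genes) and 16 lower (10.3%; 9.88% of all genes). Without Nkx2-1-shRNA replicate 1 these counts were 17 and 11.

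Many of these genes lie side by side in the genome. By RefSeq gene order, 41 members formed 13 groups whose starts were under 500 kb apart, and 31 members lay alone. Called members were seen in 3 of the 13 groups, with 1 called member in each. On chromosome 1 Il24 was higher, while the adjacent Il20, Il19 and Il10 had log2 fold changes of −0.07, 0.04 and 0.04. Of these, Il20 and Il10 were under the limit in both groups. On chromosome 11 Csf2 was higher beside Il3, which had a log2 fold change of 0.16 and was under the limit in both groups. On chromosome 5 Cxcl10 was lower between Cxcl9, near the limit (log2 means of 4.34 in Nkx2-1-shRNA lines and 4.44 in control lines), and Cxcl11, under it in both groups. The group of Cxcl5, Cxcl3, Cxcl15, Cxcl1 and Cxcl2 on chromosome 5 and the groups of 6 and 5 Ccl genes on chromosome 11 held no called member.

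**Figure D5:**
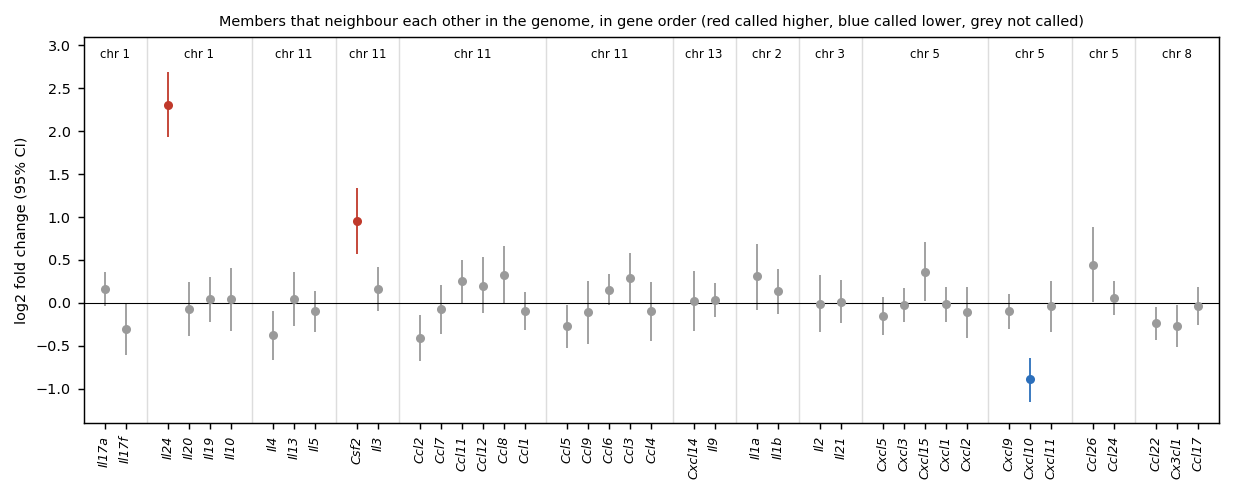
Log2 fold change of Nkx2-1-shRNA over control with its 95% confidence interval for the 41 members that neighbor each other in the genome, in gene order within each of 13 groups, with the chromosome above; red marks members called higher, blue members called lower and grey members not called. Il24, Csf2 and Cxcl10 are the only called members, and all others lie between −0.41 and 0.44. Of the members beside these 3, Il20, Il10, Il3 and Cxcl11 were under the background limit in both groups.

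The genes around the called members were read in the same way, from the 20 nearest genes above the background limit. Of all genes, 10.7% were higher and 9.88% lower, a share that includes genes below the limit. The share among genes above the limit alone was not counted. Around Il24 the median log2 fold change was −0.01, around Il34 −0.03, around Il1rn 0.12 and around Csf1 −0.06. Around Il23a the neighbors went the other way, with a median of −0.31, 9 lower and none higher, and its adjacent gene Stat2 was among the lower ones. Around Il18 8 neighbors were higher and 1 was lower (median 0.23), with the adjacent gene Bco2 at a log2 fold change of 1.25. The median around Ccl20 was also 0.23, with 6 neighbors higher and 2 lower. Around Csf2 8 were higher and none lower (median 0.11), with the adjacent P4ha2 at 1.59. Cxcl17 lay beside Ceacam1, an adhesion gene with a log2 fold change of 2.09, in a stretch with 5 higher and no lower genes (median 0.13). The part of such neighborhoods in the levels of the members was not tested.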

How the data were processed

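Total RNA of 3 Nkx2-1-shRNA and 3 non-silencing control MLE15 lines was measured on 1 array each. Probe signals were background-corrected, quantile-normalized and summarized by the authors (RMA, Affymetrix Expression Console 1.1), and the deposited values, from 0.46 to 13.69, are on the log2 scale. They were used as they stand. RMA pulls low signals together, so changes near background are understated, and array values carry no depth. The build of the array design is not given in the sources used here.

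Of 35557 transcript clusters 21789 carried 1 gene symbol, for 19938 genes. The comparison was fitted by lmFit and eBayes of limma 3.58.1 under R 4.3.3 (4 residual and 2.86 prior degrees of freedom), with Benjamini-Hochberg adjustment over all transcript clusters; the study's methods used a t-test. The replicates are lines that the study describes as independently transduced. The members and lists were chosen with earlier results of these data known.

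Named were every called member above the background limit, the best known members, up to 6 called genes of each list by size of change, and, added with their values known, receptor chains, Il11, Il12b, Il18bp and Tgfb2. Pycard, the uncalled Nlr genes, Nfkbie and Cyld were likewise added with their values known. The lists numbered 67 receptors, 19 maturation and binding genes, 34 adaptors and kinases (29 with a transcript cluster of their own), 14 NF-kB genes (13) and 29 other secreted cytokines (27). Transcript clusters of several symbols and protein sequences were not used. Alternatives were other tests and priors, array weights, rescaling, filters, a replicate block, each line left out, averaging over the transcript clusters of a gene, the study's threshold and the 90th percentile as the limit.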

Additional observations from a re-analysis of the deposited data

How the results depend on the processing

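Of the 16 called members, 9 were called under every one of the 16 fitted alternatives (Il1rn, Il34, Ccl20, Cxcl17, Il23a, Il33, Cxcl16, Lif and Csf1). A t-test for unequal variances lost the other 7 (Ccl25, Csf2, Cxcl10, Il15, Il18, Il24 and Il7). It gave 1 lower member, 12 higher and 6 lower genes over the receptor and signalling lists, and an adjusted p of 0.055 for Nkx2-1 at an unchanged log2 fold change of −0.695. The other alternatives gave 1.2e-04 to 0.0113 for Nkx2-1. The methods' t-test lost Csf2 and Il7 and added Il6, and among the named list genes it lost Casp4, Il13ra2, Il15ra, Il6st, Nfkbiz, Ppbp, Relb, Tgfb2 and Tnfaip3 (adjusted p = 0.0564 to 0.138). After Benjamini-Hochberg adjustment it gave 11 higher and 4 lower members at 0.05 and none at the study's threshold, where 11 higher and 2 lower members passed the fold with an unadjusted p under 0.05. In the limma fit the study's threshold left 6 higher and 1 lower member, and 5 higher and 2 lower list genes. A fit to transcript clusters with 1 gene symbol alone gave 7 lower members. Leaving out 1 line at a time gave 12 to 13 higher and 3 to 4 lower members, 17 to 25 higher and 11 to 17 lower list genes, and a log2 fold change of −0.73 to −0.657 for Nkx2-1.

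Median centring moved the median of all transcript clusters from −0.03 to 0.05 and that of the members from 0.03 to 0.11, and repeated quantile normalization moved them to 0.01 and 0.08. Both lost Il7 and added Il11. Sign changes were confined, among the named members, to uncalled ones near 0. Median centring gave 0.00641 for Csf3, 0.0654 for Cxcl1 and 0.0579 for Cxcl12, quantile normalization 0.0555 for Cxcl1 and 0.0286 for Cxcl12, and array weights 0.00241 for Cxcl12 and −0.0206 for Il10. With 1 line left out, Cxcl1 ran from −0.0718 to 0.0186, Cxcl12 from −0.0939 to 0.0423, Il10 from −0.116 to 0.17 and Il25 from −0.0144 to 0.0966.

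Same-numbered lines showed little shared deviation (correlations 0.0575, 0.136 and −0.0342). With 3 lines a group these values cannot settle whether the numbers pair the lines. A replicate block gave 12 higher and 3 lower members, with Il7 lost, and 24 higher and 15 lower list genes, with Relb, Tnfaip3 and Il6st lost among those named. At the 90th percentile as the background limit 49 members exceeded it, against 37. With 3 arrays a group and 35 members below the limit in both groups, no statement on those members' change rests on a measured level.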

Other observations

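Secreted factors outside the chemokines and interleukins were read from a list of 27 genes, of which 6 were higher in Nkx2-1-shRNA cells (22.2%; 10.7% of all genes), 2 were lower (7.41%; 9.88% of all genes) and 19 were not called, with a median log2 fold change of 0.02. Vegfa, the main angiogenic factor, had log2 levels of 9.94, 9.91 and 9.87 in Nkx2-1-shRNA lines and 8.68, 8.63 and 8.61 in control lines, 2.41-fold higher (limma adjusted p = 1.3e-04). Tnfsf9, which encodes the ligand of the T cell receptor 4-1BB, had log2 levels of 5.67, 5.88 and 5.82 in Nkx2-1-shRNA lines and 4.8, 4.8 and 4.96 in control lines, 1.91-fold higher (adjusted p = 0.00112). The genes of the transforming growth factors beta went both ways. Tgfb1 was 1.56-fold higher (adjusted p = 0.00955), and so was Tgfb2, named after its values were seen (1.56-fold, adjusted p = 0.0236). The call of Tgfb2 was lost without Nkx2-1-shRNA replicate 1 or 3 or control replicate 1 or 2 (adjusted p = 0.0728 to 0.0849). In the opposite direction, Tgfb3 had log2 levels of 4.62, 4.61 and 4.63 in Nkx2-1-shRNA lines and 5.36, 5.43 and 5.33 in control lines and fell to 59.4% of control (adjusted p = 9.5e-04). Kitl, the stem cell factor that mast cells need, fell to 62.1% of control (adjusted p = 0.00201). Ppbp, a platelet chemokine with a symbol of another form, was called higher (adjusted p = 0.0223) with both groups below the background limit, and the call was lost without Nkx2-1-shRNA replicate 1, 2 or 3 or control replicate 1 (adjusted p = 0.0591 to 0.079).

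Some chemokines and interleukins share their transcript cluster with near-identical copies, so that the copies cannot be told apart. None of these was called. The log2 fold changes were 0.10 and 0.09 for the pair of Il22 and Iltifb, 0.04 for the Ccl21 copies and 0.23 to 0.28 for the Ccl27 copies.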
